A study of Triticum aestivum with 18 samples.

Results

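The change that 3-methyladenine (3-MA) made under NaCl was compared between roots and leaves of wheat (Triticum aestivum, cv. Jimai 22, a NaCl-tolerant cultivar). The tissue difference of a gene was its log2 change in roots minus its log2 change in leaves, and every gene with enough counts took part, which was 79864 of the 134610 genes in the count table. Of the 18 libraries of the series, 12 entered the comparison, 3 for each of 4 groups. TMG roots had received 5 mM 3-MA and 150 mM NaCl, and TG roots 150 mM NaCl without 3-MA. TMY leaves had received 5 mM 3-MA and 150 mM NaCl, and TY leaves 150 mM NaCl without 3-MA, the third leaf being the one sampled. 3-MA was given 5 h before the salt, tissue was taken after 4 days, and each replicate pooled 10 roots or leaves. All 4 groups carried the salt, and no library analysed here received 3-MA alone, so each change is one of salted seedlings. The untreated roots (CG) and leaves (CY) stayed outside the fit and serve only as levels.

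3-MA blocks the PI3-kinase that plant cells need to start an autophagosome, the vesicle that carries cell contents to the vacuole for breakdown. Autophagy recycles organelles and proteins in roots, which meet the salt first, and in leaves, which carry photosynthesis. RNA of whole tissue was sequenced, and fewer cells of a type and less RNA per cell cannot be told apart in such samples.

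The 12 libraries held 27218551 to 33150906 counts. Values below are CPM, the counts of a gene divided by the TMM-adjusted total of its library and brought to 1 common scale over these 12 libraries, and n = 3 libraries per group throughout. The tissue labels were checked on summed levels of marker genes. Chlorophyll-binding and photosystem genes summed to 25.2 to 32.7 CPM in TMG and 75.4 to 122 CPM in TG roots, against 9387 to 15040 CPM in TMY and 21506 to 26092 CPM in TY leaves, and 2 nitrate transporter genes had no count in any of the 6 leaf libraries. Another root marker, a Casparian strip membrane protein gene, was low throughout and did not separate the tissues with 3-MA. It had 0.515 to 0.771 CPM in TMG and 0.381 to 0.607 CPM in TG roots, against 0.202 to 0.702 CPM in TMY and 0.0387 to 0.266 CPM in TY leaves. A root cap marker was sought as well and matched 0 genes. One leaf library stood apart. TMY replicate 2 differed from the other TMY libraries by a chi-square per gene of 39.1 and 49.7, whereas the other pairs within a group gave 4.51 to 30.9, the highest of them between TG replicates 1 and 3. Results that rest on TMY replicate 2 are therefore given with and without it, or with its level beside those of the other TMY libraries.

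For part of the genes the change with 3-MA differed between the tissues. edgeR's quasi-likelihood test, with Benjamini-Hochberg adjusted p of 0.05 or less as a call, found 8404 genes whose change differed (10.5% of those tested). The root change lay above the leaf change for 2714 genes (3.4%) and below it for 5690 genes (7.12%). The median size of the difference among the called genes was 1.80 on the log2 scale. Roots alone had 3002 genes up (3.76%) and 6747 down (8.45%) in TMG against TG, and leaves alone 9527 up (11.9%) and 8104 down (10.1%) in TMY against TY. Over all genes tested the median change was -0.06 in roots and 0.00 in leaves, and the median tissue difference -0.11, which is the level against which each difference below is read. Leaving out TMY replicate 2 raised the number of called genes to 12962, and leaving out TMG replicate 2, 1 or 3, TMY replicate 1 or TG replicate 2 lowered it to 4624, 4659, 5105, 5356 or 5476. The root calls, 9749 in all, were 6064, 4793, 5001 and 5116 without TG replicate 1 and TMG replicate 1, 2 and 3, and the leaf calls, 17631 in all, were 11698 without TMY replicate 1. Which tissue had more calls turned on the fit, since each tissue fitted on its own gave 14879 root calls and 11923 leaf calls. The split between higher and lower calls moved with the scaling: 32.3% of calls had the root change on top in the fit reported, and 46.4% when the scaling and the fit used all 18 libraries.

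Most genes that were called in both tissues moved the same way in both. Of 3164 such genes, 2477 changed in the same direction and 687 in opposite directions, and all 687 also passed the test of the tissue difference. Among the 50689 genes expressed in both tissues (a mean of 1 CPM or more in TMG or TG and in TMY or TY), 6695 were called (13.2%). Across these genes the root and the leaf change had a Pearson r of 0.309 and a Spearman rho of 0.235, as a description over genes, which are not replicates and share libraries, with an SD of 0.636 for the root changes and 1.07 for the leaf changes. Genes called in the tissue test were also sorted by where the change lay. 101 genes rose in both tissues and 194 fell in both, but by unequal amounts. 460 genes rose and 964 fell in roots while the leaf change did not reach an unadjusted p of 0.05, and 2725 rose and 1292 fell in leaves while the root change did not. Genes on the A, B and D subgenomes were called at like rates (10.7%, 10.3% and 10.7%).

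**Figure D1:**
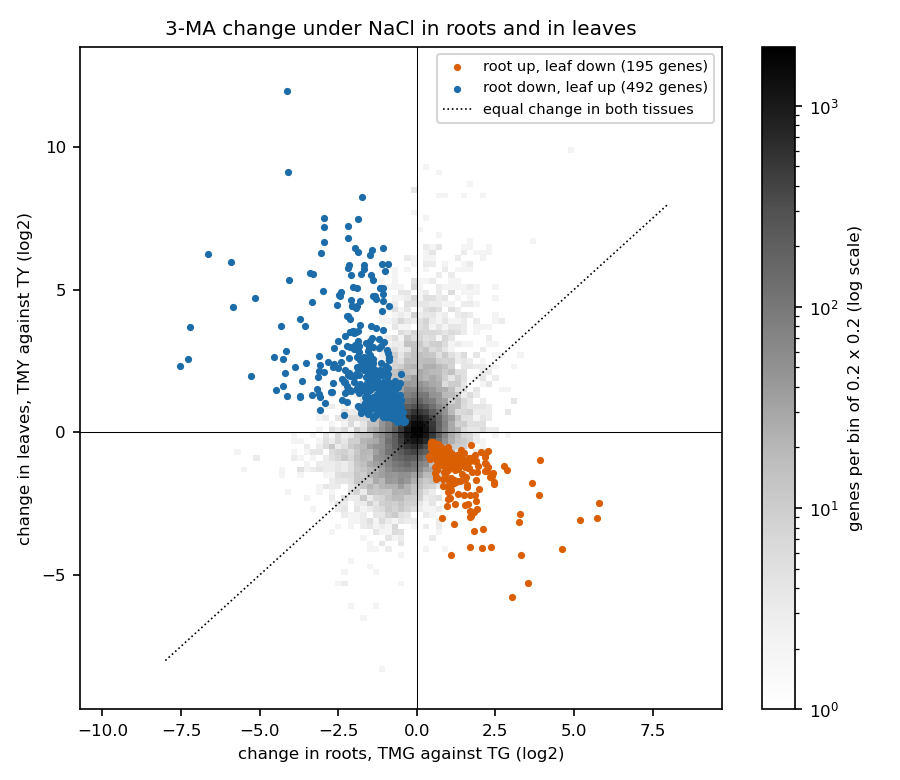
Change with 3-MA under NaCl in roots (x axis, TMG against TG, log2) and in leaves (y axis, TMY against TY, log2). Grey bins count the 50689 genes expressed in both tissues on a log scale. Coloured points are the 195 genes that rose in roots and fell in leaves and the 492 genes that fell in roots and rose in leaves, and the dotted line marks equal change.

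Opposite directions were found for 195 genes that rose in roots and fell in leaves (0.244% of the genes tested) and for 492 genes that fell in roots and rose in leaves (0.616%). In 190 of the 195 and in 459 of the 492, the 3 libraries with 3-MA did not overlap the 3 without it in either tissue, as was so for 7631 of the 71460 genes not called in the tissue test. Having chosen genes called in both tissues nearly fixes this count, which is a description. The median changes were 1.10 in roots and -1.11 in leaves for the first set, and -1.21 in roots and 1.41 in leaves for the second. These counts moved with single libraries. Without TMY replicate 2 they were 329 and 918. Without TMG replicate 1, 2 or 3 they were 102, 102 or 96 and 214, 216 or 230, without TG replicate 2 they were 112 and 285, the first was 125 without TMY replicate 1, and the second was 304 without TG replicate 1. Only 31 of the 195 and 88 of the 492 genes carried a description in the table. Protein kinase domains were frequent in the first set, with 14 of 1130 tyrosine-type kinase genes (1.24%) and 12 of 2747 other kinase genes (0.437%), against 0.244% of all genes. The second set held 7 of those 1130 (0.619%) and 18 of those 2747 (0.655%), near the 0.616% of all genes. These domains were singled out after the sets were seen.

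Wheat carries near-identical copies of many genes on its subgenomes and the strand setting of the counting is not given in the sources used here, so reads of close copies, of overlapping genes and of antisense partners may be shared between gene IDs. Positions below are those of the Chinese Spring assembly named in the study's methods.

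Among the genes that rose in roots and fell in leaves, the leading gene by the rule for named genes was a patatin gene, TraesCS7D02G491200 (7D, 600701614 to 600703713, minus strand). Patatins are lipid acyl hydrolases that free fatty acids from membrane lipids. Its level was 26.1, 23.8 and 27.9 CPM in TMG roots, against 7.57, 8.50 and 5.73 CPM in TG roots. In leaves it was 1.31, 2.49 and 1.57 CPM in TMY, against 16.1, 18.3 and 25.3 CPM in TY. The 6 genes named by size in each of the opposite sets were taken only from genes whose groups did not overlap in either tissue. Non-overlap within a tissue is therefore a condition of their choice and not a finding. In the patatin gene the order of the tissues turned round, since TG roots lay below TY leaves and TMG roots above TMY leaves. The tissue difference was 5.30 ± 0.35 (log2, SE, edgeR adjusted p = 2.94e-05), made of a root change of 1.83 and a leaf change of -3.47.

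Methionine S-methyltransferase (TraesCS1D02G011700, 1D), which makes the transport form of methionine, had 62.7, 51.4 and 56.1 CPM in TMG roots, against 25.6, 29.996 and 37.7 CPM in TG roots. In leaves it had 37.8, 40.4 and 39.4 CPM in TMY, against 86.5, 125 and 93.6 CPM in TY. Its difference was 2.24 ± 0.25 (edgeR adjusted p = 0.000382). A serine/threonine protein kinase (TraesCS1A02G080600, 1A) had 15.2 to 19.9 CPM in TMG and 6.63 to 11.5 CPM in TG roots, and 8.53 to 9.97 CPM in TMY and 15.2 to 26.5 CPM in TY leaves, with a difference of 2.17 ± 0.33 (edgeR adjusted p = 0.00225).

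WRKY transcription factors, which bind the W-box of defence and senescence genes, stood out by their number in this set. Of 246 WRKY genes tested, 9 rose in roots and fell in leaves (3.66%, against 0.244% of all genes). The WRKY45-like gene on 2A (TraesCS2A02G489500) had 89.3, 70.2 and 78.9 CPM in TMG roots, against 22.8, 24.96 and 34.6 CPM in TG roots. Its leaf libraries held 87.0, 70.4 and 118 CPM in TMY, against 244, 313 and 302 CPM in TY. TG roots were therefore far below TY leaves, whereas TMG and TMY libraries overlapped. Its difference was 3.17 ± 0.31 (edgeR adjusted p = 0.000191). The WRKY45-like gene on 2D (TraesCS2D02G489700) followed the same order, with 10.7 to 15.9 CPM in TMG and 2.52 to 4.98 CPM in TG roots, and 10.4 to 21.3 CPM in TMY and 29.9 to 41.8 CPM in TY leaves (difference 3.14 ± 0.41). WRKY transcription factor 146 (TraesCS7D02G345700, 7D) had 18.6 to 24.1 CPM in TMG and 7.23 to 14.0 CPM in TG roots, and 9.41 to 15.9 CPM in TMY and 44.1 to 60.5 CPM in TY leaves (difference 3.10 ± 0.35).

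The other 6 of the 9 carry a WRKY domain without a fuller name, and they were added after their values were seen. TraesCS7A02G338500 had 47.0 to 60.8 CPM in TMG and 17.4 to 22.2 CPM in TG roots, and 13.2 to 43.0 CPM in TMY and 106 to 137 CPM in TY leaves. TraesCS2B02G517400 had 16.7 to 31.5 CPM in TMG and 7.29 to 10.9 CPM in TG roots, and 21.1 to 30.2 CPM in TMY and 89.7 to 123 CPM in TY leaves. TraesCS5D02G232900 had 18.1 to 24.7 CPM in TMG and 4.55 to 8.54 CPM in TG roots, and 2.53 to 13.7 CPM in TMY and 28.3 to 65.3 CPM in TY leaves. In these 3 the root groups and the leaf groups were apart. A WRKY-domain gene on 4B with no reference ID had 9.39 to 11.0 CPM in TMG and 3.80 to 6.01 CPM in TG roots, and 16.3 to 33.4 CPM in TMY and 40.5 to 69.6 CPM in TY leaves. TraesCS5A02G146500 was at 0.171 to 0.309 CPM in TMG roots and at 0 or 0.0587 CPM in TG roots, so its root change rests on few reads, while its leaf level was 0.562 to 1.41 CPM in TMY and 13.7 to 25.4 CPM in TY. TraesCS1D02G300900 was below 3 CPM in every library. Their 6 differences ran between 2.09 and 7.63. The summed level of all WRKY genes was 3274 to 4106 CPM in TMG and 3003 to 4600 CPM in TG roots, which overlapped, and 2601 to 3146 CPM in TMY and 5460 to 7644 CPM in TY leaves, which did not. Over the list, 20 genes rose and 6 fell in roots and 28 rose and 70 fell in leaves, and the 20 became 7 or 8 without TG replicate 2 or 3 or any TMG replicate. The tissue test called 27 WRKY genes with the root change on top and 18 with it below (18.3% in all, against 10.5%). DESeq2 called 47 on top, and both DESeq2 and limma-voom had 12 down in roots in place of 6. Without TG replicate 1, which had the highest summed level of the 3 TG libraries, the 27 became 63. The 18 became 28 without TMY replicate 2, and 11 without TY replicate 1 or TMG replicate 2. The 9 became 4 without TG replicate 2, TG replicate 3 or TMG replicate 1, and 5 without TMG replicate 2 or 3.

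Among the genes that fell in roots and rose in leaves, the leading gene by the same rule encodes a pathogenesis related protein of the PR-1 family, TraesCS7D02G201400 (7D, 160534128 to 160535018, plus strand). PR-1 proteins are secreted during defence. It had 248, 203 and 243 CPM in TMG roots, against 453, 451 and 557 CPM in TG roots. In leaves it had 71.0, 94.97 and 62.5 CPM in TMY, against 1.18, 0.464 and 0.937 CPM in TY. TY leaves were near 0, and the 3 TMY libraries, replicate 2 included, were all far above them. The tissue difference was -7.53 ± 0.38 (edgeR adjusted p = 6.94e-06), made of a root change of -1.07 and a leaf change of 6.46.

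Sucrose synthase, which splits sucrose in tissues that import sugar, was represented by TraesCS7B02G063400 (7B). It had 301, 330 and 354 CPM in TMG roots, against 974, 1212 and 1198 CPM in TG roots. Its leaf libraries held 108, 64.8 and 102 CPM in TMY, against 30.3, 32.0 and 36.3 CPM in TY. All 4 groups were apart from one another, and the gap between root and leaf narrowed from both sides, with a difference of -3.26 ± 0.28 (edgeR adjusted p = 0.000114). A gene described as cold-responsive protein (TraesCS2A02G460600, 2A) had 1.72, 2.62 and 4.97 CPM in TMG roots, against 16.9, 9.75 and 14.3 CPM in TG roots. In leaves it had 130, 65.3 and 128 CPM in TMY, against 18.2, 11.8 and 11.2 CPM in TY, so that its TG and TY levels overlapped and the tissues moved apart (difference -5.11 ± 0.55, edgeR adjusted p = 0.000314).

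The tonoplast aquaporin gene TIP2;2 (TraesCS7B02G243000, 7B), a water channel of the vacuole membrane, had 3.71 to 6.02 CPM in TMG and 9.38 to 33.2 CPM in TG roots, and 6.86 to 24.8 CPM in TMY and 1.79 to 2.47 CPM in TY leaves (difference -4.66 ± 0.73). A serine/threonine protein kinase gene (TraesCS5D02G144800, 5D) had 8.29 to 8.996 CPM in TMG and 17.1 to 37.2 CPM in TG roots, and 20.4 to 42.4 CPM in TMY and 6.75 to 9.63 CPM in TY leaves (difference -3.62 ± 0.45). Purple acid phosphatases release phosphate from organic compounds, and TraesCS5A02G461300 (5A) had 2.86 to 3.77 CPM in TMG and 9.77 to 11.2 CPM in TG roots, and 44.2 to 65.3 CPM in TMY and 23.4 to 29.99 CPM in TY leaves (difference -2.67 ± 0.24). In each of these 3 genes both pairs of groups were apart, which the rule required of the TIP2;2 and kinase genes.

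**Figure D2:**
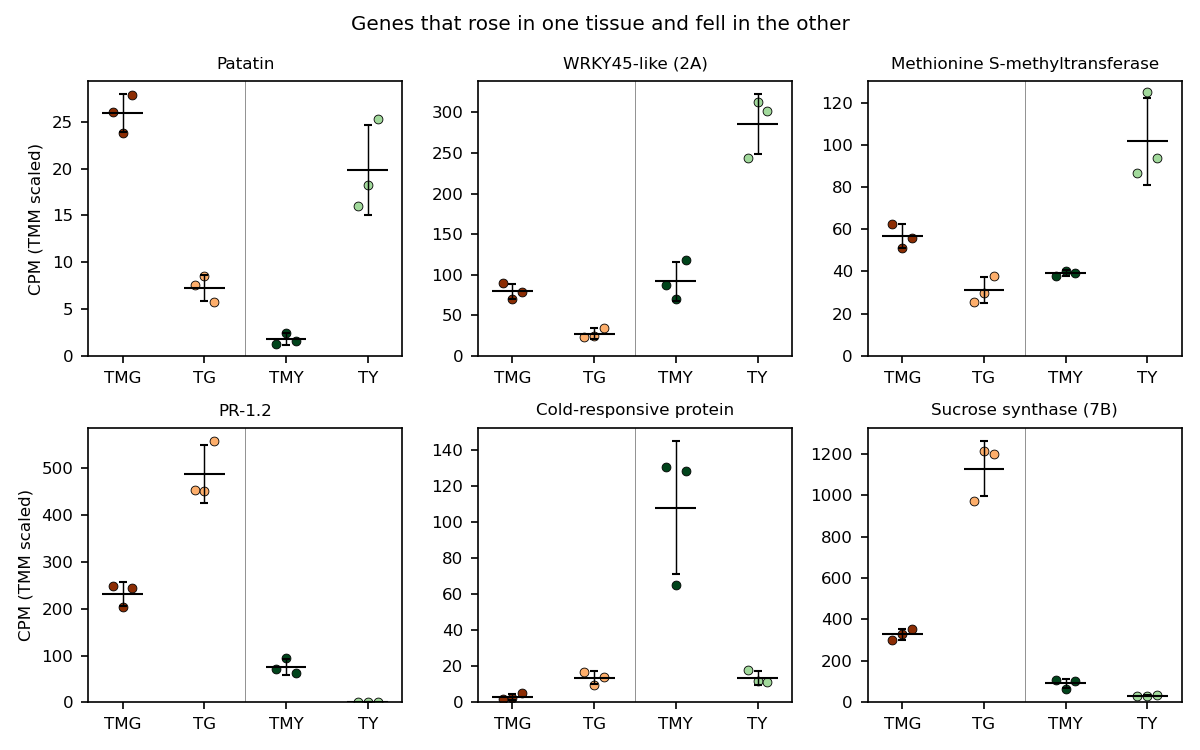
CPM in each library (points) with the group mean (line) and SD (bar), n = 3, for 6 genes that moved in opposite directions. In the upper row TMG roots lie above TG roots while TMY leaves lie below TY leaves. In the lower row the order is reversed in both tissues.

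Levels in the untreated controls were read on a scale over all 18 libraries. Patatin was at 24.1 CPM in TMG, 6.48 CPM in TG and 0.0577 CPM in CG roots, and at 1.60 CPM in TMY, 18.7 CPM in TY and 5.61 CPM in CY leaves. The WRKY45-like gene on 2A was at 73.8 CPM in TMG, 24.4 CPM in TG and 4.61 CPM in CG roots, and at 81.7 CPM in TMY, 270 CPM in TY and 157 CPM in CY leaves. Both were thus lowest in untreated roots. Sucrose synthase was at 305 CPM in TMG, 1005 CPM in TG and 1986 CPM in CG roots, and at 81.2 CPM in TMY, 31.0 CPM in TY and 22.1 CPM in CY leaves, so that its order over the 3 treatments ran in opposite directions in the 2 tissues. Over the 195 genes that rose in roots and fell in leaves, the median level was 6.89 CPM in TMG, 3.49 CPM in TG and 2.12 CPM in CG roots, and 6.83 CPM in TMY, 17.0 CPM in TY and 16.4 CPM in CY leaves. Over the 492 genes of the other set it was 4.70 CPM in TMG, 10.7 CPM in TG and 9.17 CPM in CG roots, and 5.19 CPM in TMY, 2.06 CPM in TY and 2.71 CPM in CY leaves.

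The root-to-leaf difference itself was also set out with and without 3-MA. Both sets were chosen for the tissue difference, which is also the root-to-leaf difference with 3-MA minus that without it, so the following values are a description. For the 195 genes the median root-to-leaf difference, with its sign, was 0.06 on the log2 scale with 3-MA (TMG against TMY) and -2.21 without it (TG against TY). For the 492 genes it was -0.02 with 3-MA and 2.28 without it. The values near 0 are medians over genes that went both ways. Regardless of sign, the median size was 1.57 with 3-MA and 2.47 without it for the 195 genes, and 1.54 with 3-MA and 2.46 without it for the 492. Root and leaf still differed by call in 157 of the 195 genes with 3-MA (80.5%), against 177 without it (90.8%), and in 378 of the 492 with 3-MA (76.8%), against 442 without it (89.8%). The size was smaller with 3-MA for 140 of the 195 genes (71.8%) and for 356 of the 492 (72.4%), against 58.2% of all genes tested. The 194 genes that fell in both tissues went the other way, with a smaller difference for 47 genes (24.2%). The direct comparison of root with leaf, added after the values were seen, called 48324 genes with 3-MA (60.5%) and 52679 genes with NaCl alone (66%). Among the 43994 genes expressed in both tissues and not called in the tissue test, the median size of the root-to-leaf difference was 0.53 with 3-MA and 0.59 without it.

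**Figure D3:**
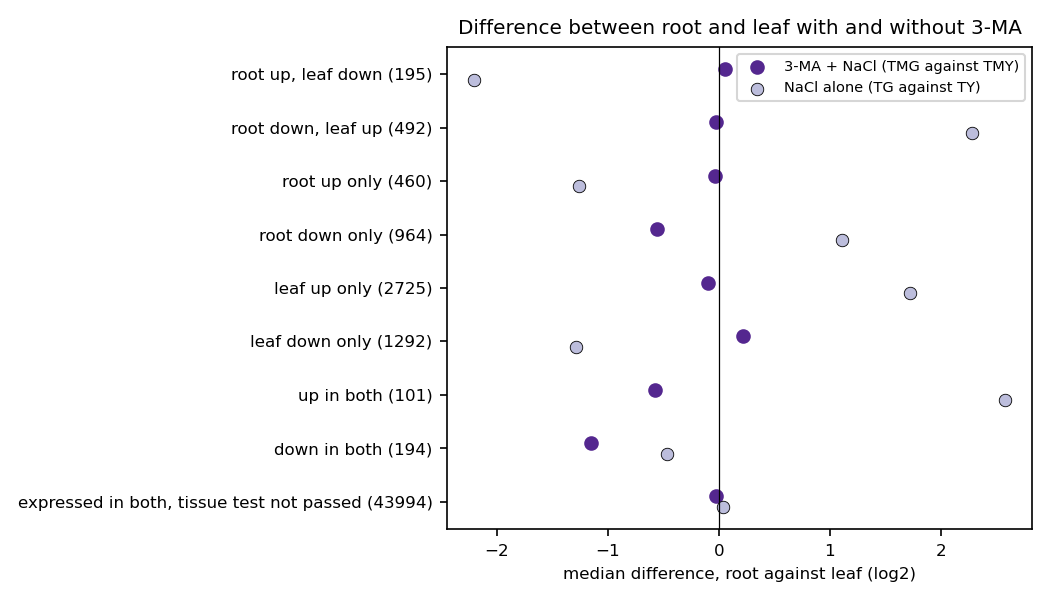
Median log2 difference of root against leaf, with 3-MA and NaCl (dark points, TMG against TMY) and with NaCl alone (light points, TG against TY), for the gene sets of the tissue test, with the number of genes in brackets. In the sets that moved in opposite directions the light points lie at -2.21 and 2.28 and the dark points at 0.06 and -0.02, where genes of either sign offset each other and the median size was 1.57 and 1.54.

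Among genes that rose in roots without a leaf change that reached an unadjusted p of 0.05, the leading named gene encodes a cold regulated protein (TraesCS1D02G296500). It had 13.9, 15.7 and 24.8 CPM in TMG roots, against 2.05, 6.50 and 1.28 CPM in TG roots, while TMY leaves had 6.57 to 14.2 CPM and TY leaves 9.63 to 13.1 CPM. The difference was 2.61 ± 0.67 (edgeR adjusted p = 0.0302), and the call was lost without TG replicate 1, TY replicate 1 or 2, TMG replicate 2 or 3, or TMY replicate 3. The next 2 genes fell in roots, again without a leaf change that reached an unadjusted p of 0.05. A peroxidase gene (TraesCS1B02G095800) had 3.71, 2.91 and 2.60 CPM in TMG roots, against 30.7, 16.0 and 17.3 CPM in TG roots, while TMY leaves had 10.6 to 15.1 CPM and TY leaves 12.1 to 15.5 CPM. The leaf groups overlapped and the root groups were apart, with a difference of -2.77 ± 0.35 (edgeR adjusted p = 0.000852). The gene named stress responsive protein 2 (TraesCS2D02G101000) had 1.24 to 2.00 CPM in TMG and 9.90 to 32.8 CPM in TG roots, and 196 to 259 CPM in TMY and 245 to 467 CPM in TY leaves (difference -2.94 ± 0.57).

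The leading genes that rose in leaves alone were near 0 in TY leaves and well expressed in both root groups. Hemoglobin 1 (TraesCS4D02G238600), of the plant hemoglobins that react with nitric oxide, had 77.7, 7.27 and 62.3 CPM in TMY leaves, against 0.228, 0.155 and 0.150 CPM in TY leaves. Its roots had 88.9 to 172 CPM in TMG and 196 to 328 CPM in TG. TMY replicate 2 was the lowest of the TMY libraries and still above every TY library, and the difference was -9.17 ± 1.07 (edgeR adjusted p = 0.000519). A gibberellin oxidase gene (TraesCS3B02G328700), of the oxidases that inactivate gibberellins, had 41.6, 3.55 and 23.6 CPM in TMY leaves, against 0.228, 0.155 and 0 CPM in TY leaves, and 19.6 to 30.5 CPM in TMG and 16.3 to 44.5 CPM in TG roots (difference -7.63 ± 1.22, edgeR adjusted p = 0.00293), and limma-voom did not call it. Among the genes that fell in leaves alone, a cadmium tolerance factor gene (TraesCS6D02G346400) had 15.5, 10.2 and 10.8 CPM in TMY leaves, against 102, 76.6 and 61.5 CPM in TY leaves, while its TG roots ranged widely, with 13.5 to 24.9 CPM in TMG and 3.10 to 29.6 CPM in TG. Its difference of 3.21 ± 0.83 (edgeR adjusted p = 0.0306) was no longer called without TG replicate 2, TY replicate 1 or 2, TMG replicate 1 or 2, or TMY replicate 1 or 3.

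Some genes moved the same way in both tissues and still differed. A catalase gene (TraesCS6A02G041700), of the enzyme that removes hydrogen peroxide, had 228, 227 and 204 CPM in TMG roots, against 48.4, 83.9 and 41.8 CPM in TG roots. Its leaf libraries held 331, 418 and 414 CPM in TMY, against 15.9, 5.65 and 7.54 CPM in TY. It rose in both, by 1.92 in roots and 5.32 in leaves (log2), with a difference of -3.40 ± 0.48 (edgeR adjusted p = 0.00157), which was not called in the fit over all 18 libraries. Sucrose:fructan 6-fructosyltransferase (TraesCS4A02G485400), which builds the fructans that wheat stores, fell in both. It had 42.1 to 67.1 CPM in TMG and 273 to 304 CPM in TG roots, and 6.003 to 8.39 CPM in TMY and 92.9 to 567 CPM in TY leaves (difference 3.04 ± 0.65). An auxin-responsive protein gene (TraesCS5D02G069200) fell in both tissues as well, with 10.9 to 16.0 CPM in TMG and 28.0 to 36.1 CPM in TG roots, and 0.0328 to 0.351 CPM in TMY and 9.07 to 11.7 CPM in TY leaves (difference 4.85 ± 0.54). Of the genes that rose in both, a glycosyltransferase gene (TraesCS5A02G305100) had a difference of -5.11 ± 0.77 and a beta glucanase gene (TraesCS1B02G249000), of the enzymes that cut cell wall glucans, one of -4.27 ± 0.63.

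Histone genes, whose products package DNA and whose transcripts are most abundant in dividing cells, differed between the tissues in 1 direction only. Of 386 histone genes tested, 95 had a root change below the leaf change, and edgeR called 0 the other way, as did DESeq2 and limma-voom, with 0 at an unadjusted p under 0.05. That is 24.6% of the list, against 10.5% of all genes in either direction and 7.12% with the root change below. In leaves 99 rose and 3 fell, and in roots 19 fell, a count between 3 (without TMG replicate 3) and 36 (without TMY replicate 2) by edgeR and 57 by DESeq2 and by limma-voom. The 99 became 64 and 65 without TMY replicate 1 and 3. The median change was -0.73 in roots and 1.26 in leaves, beside -0.06 and 0.00 over all genes. Only 115 of the 386 genes were expressed in both tissues. Of these, 60 were called, with medians of -0.55 in roots and 1.10 in leaves. With 0.5 added to each level before the log2, the median over the 386 genes was lower in leaves. It was 0.27, 0.01 and 0.23 in TMY replicate 1, 2 and 3, each against the TY mean. Each core class was represented, with 22 of 100 H2A, 27 of 86 H2B, 19 of 92 H3 and 26 of 107 H4 genes called. In 11 genes the root fell and the leaf rose, 6 of them H2A, 4 H2B and 1 H4. The H2A gene TraesCS7B02G336700 had 9.55, 10.5 and 8.96 CPM in TMG roots, against 26.9, 18.03 and 18.1 CPM in TG roots. In leaves it had 11.5, 8.25 and 14.6 CPM in TMY, against 3.16, 2.90 and 2.40 CPM in TY. Its groups were apart in both tissues, as the rule that named it required, and TMG and TMY libraries overlapped (difference -3.14 ± 0.32, edgeR adjusted p = 0.000234). The H2B gene TraesCS3B02G390100 had 25.6, 7.09 and 30.1 CPM in TMY leaves, against 2.17, 1.66 and 1.61 CPM in TY leaves, and 11.8 to 14.0 CPM in TMG and 13.8 to 14.9 CPM in TG roots (difference -3.72 ± 0.55).

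The summed level of the histone genes was 3501, 3593 and 3462 CPM in TMG roots, against 6177, 4275 and 3879 CPM in TG roots. In leaves it was 2229, 1589 and 2312 CPM in TMY, against 1353, 1575 and 1448 CPM in TY. TMY replicate 2 stood only just above the highest TY library, and TG replicate 1 was the highest of the root libraries. DESeq2 called 148 with the root change below and limma-voom 71, and of the genes of opposite direction 17 and 13. Without TMY replicate 2 the number called was 135, and it was 59, 61, 63 and 59 without TMG replicate 1, 2 and 3 and TMY replicate 1. The 11 genes of opposite direction were 20 without TMY replicate 2, and 3, 5, 3, 5 and 2 without TG replicate 1 and 2 and TMG replicate 1, 2 and 3. The list of other cell cycle and DNA replication genes had 4 calls with the root change on top and 23 with it below among 265 genes (10.2%), close to the share over all genes. DESeq2 had 8 on top. Without TMY replicate 2 these were 15 and 35, the 4 ranged down to 1 over the other fits that left out 1 library, and the 23 became 14, 14 and 15 without TMG replicate 1, TMG replicate 3 and TMY replicate 1.

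Glutathione S-transferases, which couple glutathione to small molecules, had more genes up than down in leaves. Of 220 glutathione S-transferase genes, 100 rose and 6 fell in leaves, and 32 rose and 14 fell in roots, with medians of 0.33 in roots and 1.24 in leaves. Of the 220, 106 were expressed in both tissues and 36 of these were called, with medians of 0.26 in roots and 1.77 in leaves. The 32 became 16, 20 and 19 without TMG replicate 1, 2 and 3, and 50 without TMY replicate 2. The tissue test called 51 with the root change below and 2 with it on top (24.1%, against 10.5% of all genes), where DESeq2 had 9 and limma-voom 8 on top. Their summed level was 5348, 4864 and 5422 CPM in TMG roots, against 3756, 3969 and 3710 CPM in TG roots. In leaves it was 6996, 3549 and 7669 CPM in TMY, against 2885, 2911 and 2634 CPM in TY. TMY replicate 2 was thus at less than the lowest of the TG sums and close to TY, and without it the 51 became 95. The gene TraesCS1D02G191100 had 190, 43.1 and 218 CPM in TMY leaves, against 11.6, 13.1 and 5.55 CPM in TY leaves, and 10.8 to 16.2 CPM in TMG and 14.4 to 19.0 CPM in TG roots. Its difference was -4.32 ± 0.69 (edgeR adjusted p = 0.00287).

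UDP-type glycosyltransferases, which attach sugars to small molecules, had 148 of 577 genes up and 50 down in leaves, and 36 up and 72 down in roots. Over all genes tested 11.9% rose and 10.1% fell in leaves, and 3.76% rose and 8.45% fell in roots. The tissue test called 10.5% of all genes, 7.12% with the root change below and 3.4% with it on top. The tissue test called 109 with the root change below and 20 with it on top (22.4%), the 20 being 37 by DESeq2. Without TMG replicate 2 or TMY replicate 1 the 109 became 69 or 71, and the 20 became 13, 11, 12 or 13 without TY replicate 2 or TMG replicate 1, 2 or 3. The summed level of these genes was 6312, 3364 and 7583 CPM in TMY leaves, against 3315, 3415.5 and 2553 CPM in TY leaves. TMY replicate 2 thus lay within the range of the TY libraries. In roots the sum was 3587, 3288 and 3509 CPM in TMG, against 4093, 3816 and 3929 CPM in TG. TraesCS5A02G393900 had 10.9, 6.14 and 13.7 CPM in TMY leaves, against 0, 0.348 and 0.412 CPM in TY leaves, and 8.14 to 10.3 CPM in TMG and 8.07 to 11.9 CPM in TG roots (difference -5.51 ± 0.65). MATE and ABC transporters, which move small molecules across membranes, had 147 of 547 genes up and 59 down in leaves, and 50 up and 38 down in roots. Here 67 genes were called with the root change below and 22 with it on top (16.3%), and without TMY replicate 2 these were 122 and 43. DESeq2 had 90 transporter genes down in leaves in place of 59, and 58 on top in place of 22. The 67 became 44 without TMG replicate 2, and the 22 became 13, 14, 13 or 14 without TG replicate 2 or TMG replicate 1, 2 or 3. The MATE gene TraesCS7D02G129700 had 90.3, 18.01 and 114 CPM in TMY leaves, against 2.63, 1.70 and 6.19 CPM in TY leaves (difference -4.03 ± 0.87). Cytochrome P450 genes, oxygenases of many pathways, had 98 calls below and 36 on top among 770 (17.4%), beside 5690 below and 2714 on top over all genes. Their summed level was 9980, 6212 and 12129.5 CPM in TMY leaves, against 5371, 5582 and 4757.5 CPM in TY leaves. In roots the P450 sum was 8910, 7878 and 8467 CPM in TMG, against 7685, 8168 and 8269 CPM in TG. The 36 were 66 by DESeq2, and the 98 became 61 or 60 without TMG replicate 1 or 2. The P450 gene for an abscisic acid hydroxylase (TraesCS6A02G271300), an enzyme that breaks this hormone down, had 58.4 to 88.8 CPM in TMY and 129 to 206 CPM in TY leaves, and 62.4 to 70.3 CPM in TMG and 50.1 to 67.9 CPM in TG roots (difference 1.33 ± 0.28).

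**Figure D4:**
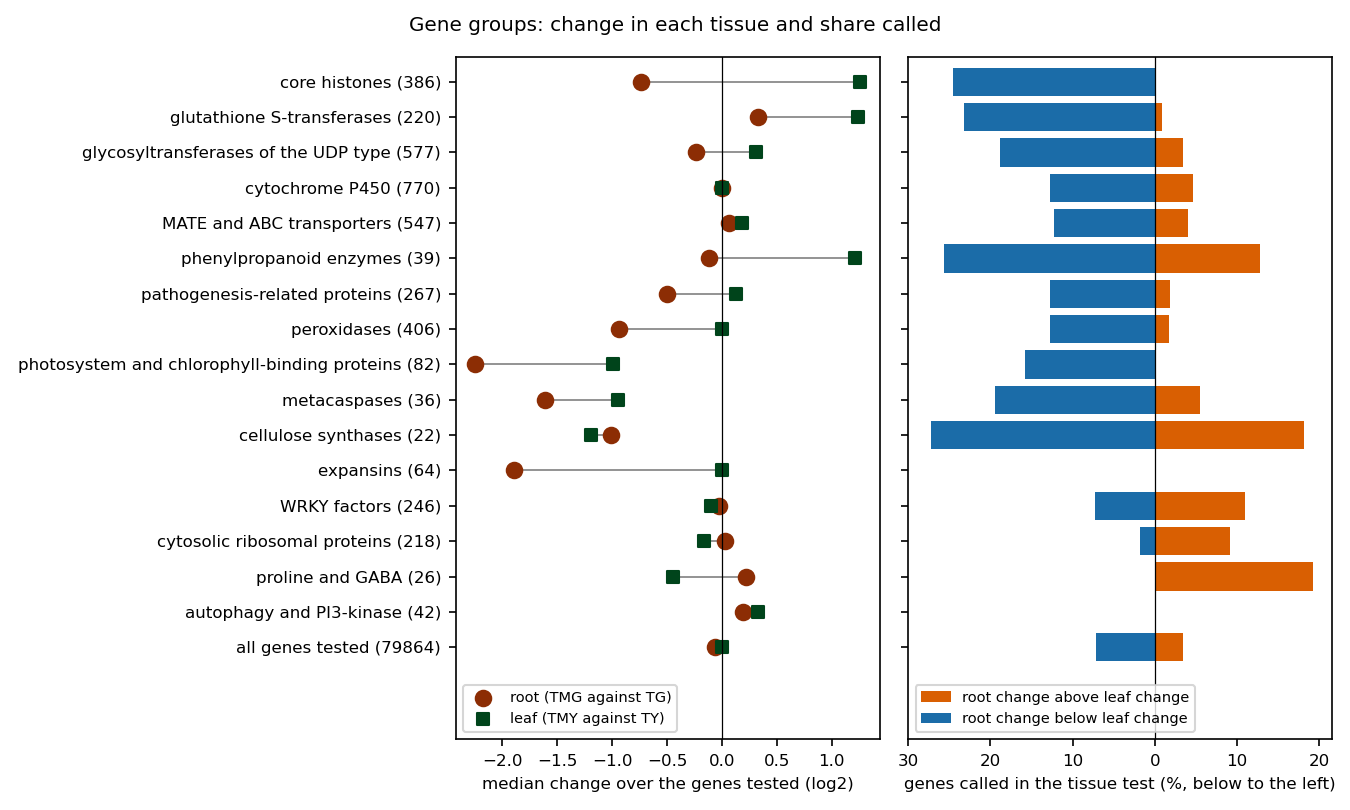
Left, median log2 change over the genes tested of each list in roots (circles, TMG against TG) and in leaves (squares, TMY against TY). Right, percent of the list called in the tissue test with the root change above (orange) or below (blue, to the left) the leaf change. The number of genes tested is in brackets, and all genes tested stand in the last row. Histones reach 24.6%, all below.

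Phenylpropanoid enzymes, which feed lignin and flavonoid synthesis, were split by gene copy. Of 39 genes tested, 15 were called (38.5%, against 10.5% of all genes), 10 with the root change below and 5 with it on top. By edgeR 15 rose and 7 fell in leaves, while in roots 0 rose and 0 fell. DESeq2 called 2 and limma-voom 1 down in roots. Phenylalanine ammonia-lyase, the entry enzyme, was on both sides. TraesCS6D02G212200 had 409, 395 and 389 CPM in TMG roots, against 1105, 919 and 854 CPM in TG roots. Its leaf libraries held 48.0, 11.0 and 50.3 CPM in TMY, against 0.799, 1.16 and 2.55 CPM in TY. The root groups and the leaf groups were apart, though edgeR did not call the root change (difference -5.86 ± 0.71, edgeR adjusted p = 0.000624). TraesCS6B02G258400 averaged 833 CPM in TMG and 1596 CPM in TG roots, and 36.3 CPM in TMY and 1.41 CPM in TY leaves. In contrast TraesCS1B02G122800 had 16.9, 7.97 and 18.5 CPM in TMY leaves, against 126, 114 and 35.6 CPM in TY leaves, with overlapping root groups (difference 2.63 ± 0.70, edgeR adjusted p = 0.034). A further 3 copies that fell in leaves, TraesCS2D02G204700, TraesCS2B02G224300 and TraesCS1D02G103500, had differences of 2.47, 2.22 and 2.09. The call of TraesCS1B02G122800 was lost without TG replicate 2 or 3, TY replicate 1 or 2, TMG replicate 1 or 2, or TMY replicate 1. Limma-voom called 5 below and 3 on top. Without TMY replicate 2 the list had 21 calls below and 3 on top. The 10 became 6 without TMG replicate 2, and the 5 fell to 1 without TG replicate 2, TY replicate 1 or TMG replicate 1 or 2, to 2 without TG replicate 3 or TMY replicate 1, and to 3 without TY replicate 2, TMG replicate 3 or TMY replicate 3.

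Cell wall genes separated roots from leaves by the member concerned. All 22 cellulose synthase genes, which spin the cellulose chains of the wall, were tested. Of these, 10 were called (45.5%, against 10.5% of all genes), 6 with the root change below and 4 with it on top. These 6 remained 6 in each of the 12 fits that left out 1 library, and the 4 ranged between 3 and 5. In the 6 genes the mean level was 4.38 to 16.8 CPM in TMG and 54.7 to 165 CPM in TG roots, and 0.698 to 3.96 CPM in TMY and 1.29 to 5.71 CPM in TY leaves. Their root changes ran between -3.65 and -2.89, and their leaf changes between -0.86 and -0.06. The 4 others fell in leaves, 1 of them in roots too. TraesCS5D02G470400 had 43.0, 46.9 and 42.5 CPM in TMG roots, against 28.7, 32.5 and 30.3 CPM in TG roots, and 23.7, 48.8 and 31.1 CPM in TMY leaves, against 154, 106 and 90.5 CPM in TY leaves. Its difference was 2.29 ± 0.35 (edgeR adjusted p = 0.00224). Over the whole list 18 genes fell in roots and 15 fell in leaves, where 8.45% and 10.1% of all genes fell.

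Peroxidases of the secreted plant class, which act on wall phenolics, had 157 of 406 genes down and 15 up in roots, while 44 rose and 27 fell in leaves. Over all genes 8.45% fell and 3.76% rose in roots, 11.9% rose and 10.1% fell in leaves, and the tissue test called 10.5%. Of the 406 peroxidase genes, 104 were expressed in both tissues, and 36 of these were called. The tissue test called 52 with the root change below and 7 with it on top (14.5%), and no omission of 1 library moved the 52 by more than 1.5 times, whereas DESeq2 called 79 below and 12 on top and limma-voom 87 below and had 28 up in roots. The peroxidase gene TraesCS3A02G297200 had 62.1, 55.3 and 52.3 CPM in TMG roots, against 143, 129 and 66.7 CPM in TG roots, and 20.6, 8.64 and 38.3 CPM in TMY leaves, against 1.10, 0.348 and 0.337 CPM in TY leaves (difference -6.23 ± 0.76). Expansins, which loosen the wall for growth, had 38 of 64 genes down in roots and 2 down in leaves. Nevertheless edgeR called 0 of them in the tissue test, with 2 at an unadjusted p under 0.05, whereas DESeq2 called 4 and limma-voom 22, all with the root change below, and edgeR called 1 without TY replicate 2. The 38 became 24, 23 or 22 without TG replicate 3 or TMG replicate 1 or 2. Their summed level was 85.3 to 113 CPM in TMG and 232 to 299.7 CPM in TG roots, and 5.97 to 8.32 CPM in TMY and 8.59 to 13.9 CPM in TY leaves, so the leaf levels were low in both groups. A xyloglucan endotransglucosylase/hydrolase gene (TraesCS2D02G431500), of the enzymes that rejoin wall xyloglucan, had 187, 37.4 and 192 CPM in TMY leaves, against 0.190, 0 and 1.12 CPM in TY leaves, and 117 to 141 CPM in TMG and 20.9 to 47.2 CPM in TG roots (difference -6.55 ± 1.04). A dirigent protein gene (TraesCS4B02G291800) fell in both tissues, with 0.117 to 0.685 CPM in TMG and 8.48 to 20.6 CPM in TG roots, and 3.21 to 4.85 CPM in TMY and 19.8 to 35.2 CPM in TY leaves. Its difference of -2.28 ± 0.62 was not called by limma-voom, or without TG replicate 2 or 3, TY replicate 1 or 3, TMG replicate 1 or 2, or TMY replicate 1 or 3.

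**Figure D5:**
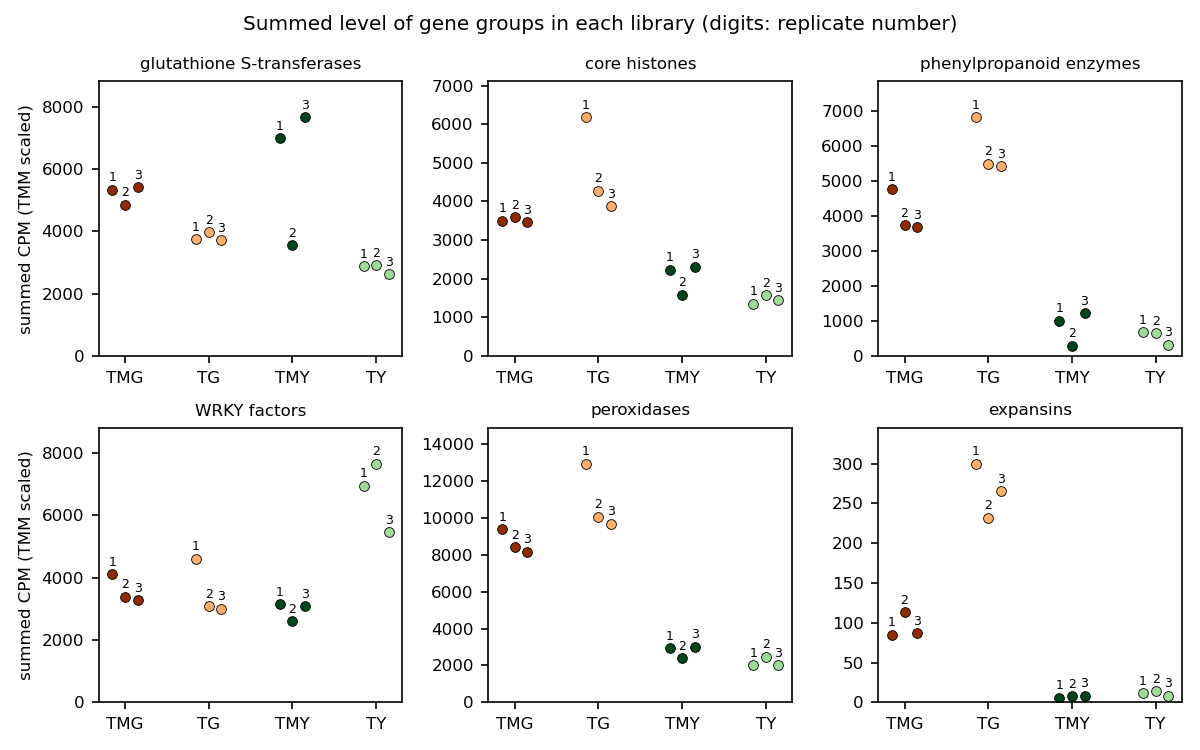
Summed CPM of all genes of 6 lists in each of the 12 libraries, with the replicate number beside each point. TMY replicate 2 lies near the TY libraries for glutathione S-transferases (3549 CPM) and histones (1589 CPM), and TG replicate 1 is the highest TG library for histones, phenylpropanoid enzymes, WRKY factors, peroxidases and expansins.

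Of 82 photosystem and chlorophyll-binding genes, 37 fell and 0 rose in roots and 41 fell and 0 rose in leaves by edgeR, with 2 in roots and 1 in leaves up at an unadjusted p under 0.05, and DESeq2 called 1 up in leaves. Of the 82, edgeR called 13 with the root change below the leaf change and 0 the other way. That is 15.9%, against 10.5% of all genes in either direction and 7.12% with the root change below. The other way 4 had an unadjusted p under 0.05, and DESeq2 and limma-voom each called 1. With the root change below, DESeq2 called 23 and limma-voom 5. The 13 fell by medians of 3.27 in roots and 1.04 in leaves on the log2 scale. Their root levels were low, with a mean of 0.0573 to 2.03 CPM in TMG and 0.436 to 4.99 CPM in TG roots, against 12.9 to 708 CPM in TMY and 18.4 to 1551 CPM in TY leaves. The photosystem sums of the root libraries given above moved with them, and their part in the result was not tested. The 13 became 6 without TG replicate 3, TY replicate 1 or TMG replicate 1 or 2, and 7 without TY replicate 3, and 1 was called the other way without TMG replicate 1 or TMY replicate 2. Metacaspases, cysteine proteases linked to cell death, had 20 of 36 genes down and 3 up in roots, and 16 down and 1 up in leaves, a count between 0 and 5 over the fits that left out 1 library, 5 without TMY replicate 2. Here 7 were called with the root change below and 2 with it on top (25%, against 10.5% of all genes), or 5 on top by DESeq2. TraesCS4D02G358800 averaged 3.37 CPM in TMG and 223 CPM in TG roots, and 29.7 CPM in TMY and 172 CPM in TY leaves, with a difference of -3.51. TraesCS5A02G139900 was one of the 2 others, at 17.2 CPM in TMG and 3.86 CPM in TG roots and at 0.216 CPM in TMY and 0.342 CPM in TY leaves, a difference of 2.87. These 2 ranged between 0 and 3 over the fits that left out 1 library, with 0 without TY replicate 3 or TMY replicate 1, and the 7 between 5 and 8.

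Genes of proline and GABA metabolism, both compatible solutes of salted cells, had 5 of 26 called with the root change on top (19.2%, against 3.4% of all genes). With it below there were 0 by edgeR or limma-voom, 1 by DESeq2 and 2 at an unadjusted p under 0.05. DESeq2 called 8 on top. The 5 ranged between 3 and 7 over the fits that left out 1 library, with 3 without TG replicate 2 or 3, TY replicate 1, TMG replicate 1 or 2, or TMY replicate 1. Proline dehydrogenase, which breaks proline down, was represented by TraesCS1B02G223300, with 18.4, 19.2 and 16.9 CPM in TMG roots, against 16.4, 9.93 and 9.15 CPM in TG roots, and 29.0, 16.5 and 53.5 CPM in TMY leaves, against 91.6, 158 and 91.1 CPM in TY leaves. It fell in leaves and its difference was 2.40 ± 0.53 (edgeR adjusted p = 0.0148). Delta-1-pyrroline-5-carboxylate synthase, the first enzyme of proline synthesis from glutamate, averaged 12.2 CPM in TMG and 4.74 CPM in TG roots and 40.8 CPM in TMY and 48.2 CPM in TY leaves for TraesCS3A02G363700, a difference of 1.60. Cytosolic ribosomal proteins had 20 of 218 called with the root change on top and 4 below (11%, near the 10.5% of all genes). By direction, 3.4% of all genes were on top and 7.12% below, so in the fit reported this list was split the other way. The 20 ranged between 4 and 25 over the fits that left out 1 library, and were 47 by DESeq2 and 13 under scaling by library size. The gene for ribosomal protein S7, TraesCS1D02G125600, had 34.1 to 36.4 CPM in TMG and 19.9 to 25.5 CPM in TG roots, and 23.1 to 28.7 CPM in TMY and 28.5 to 39.3 CPM in TY leaves (difference 1.04 ± 0.21).

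Single genes of transport and hormone synthesis were called too. The AKT1-like potassium channel gene (TraesCS3A02G233800) had 67.6, 29.4 and 43.9 CPM in TMY leaves, against 5.44, 9.20 and 7.61 CPM in TY leaves, and 22.7 to 23.8 CPM in TMG and 13.5 to 21.8 CPM in TG roots (difference -2.18 ± 0.40). Uricase (TraesCS3D02G369200), an enzyme of purine breakdown, had 14.4, 9.02 and 15.3 CPM in TMY leaves, against 4.11, 6.11 and 4.24 CPM in TY leaves, and 22.6 to 23.8 CPM in TMG and 28.3 to 31.1 CPM in TG roots (difference -1.75 ± 0.28). Lipoxygenases, which start jasmonate synthesis among other oxylipins, had a named gene called in each direction. TraesCS2B02G555400 had 10.2 to 11.0 CPM in TMG and 0.851 to 6.05 CPM in TG roots, and 87.1 to 172 CPM in TMY and 325 to 440 CPM in TY leaves (difference 3.02 ± 0.65). TraesCS7D02G244800 had 57.6, 6.71 and 65.4 CPM in TMY leaves, against 1.94, 3.40 and 2.74 CPM in TY leaves, with a difference of -3.51 ± 0.82 that was not called by limma-voom, or without TY replicate 1 or TMG replicate 2 or 3.

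For the autophagy genes themselves no difference between the tissues was detectable. Of 42 genes for autophagy-related proteins and PI3-kinase, edgeR called 0 in the tissue test in either direction, as did DESeq2 and limma-voom, with 1 on top and 2 below at an unadjusted p under 0.05, and 1 below was called without TMY replicate 1 or 2. In roots 3 rose and 0 fell and in leaves 10 rose and 0 fell, at median changes of 0.20 and 0.33. Over all genes 3.76% rose in roots and 11.9% in leaves, and the tissue test called 10.5%. In leaves 2 were down at an unadjusted p under 0.05, and DESeq2 called 2 down and the fit with RLE factors 1. The 3 were 6 by DESeq2, 5 by limma-voom and 5 under scaling by library size, and the 10 were 6 with RLE factors. The 3 became 0 without TMG replicate 2 and 5 without TMY replicate 2, and the 10 became 2, 3 and 3 without TY replicate 1, TMY replicate 1 and TMY replicate 3. Autophagy-related protein 7b (TraesCS3D02G231900), of the enzyme that activates the ATG8 tag, averaged 32.5 CPM in TMG and 17.6 CPM in TG roots, and 17.9 CPM in TMY and 10.2 CPM in TY leaves, a tissue difference of 0.07. Further named genes were those also assayed by qRT-PCR. Among them the autophagy gene TraesCS6B02G214000 had too few counts to test. Of 2 genes with a caspase-type domain, TraesCS4B02G381800 had 0.0257 to 0.143 CPM in TMG and 2.76 to 5.02 CPM in TG roots, and 0.121 to 0.722 CPM in TMY and 1.35 to 2.14 CPM in TY leaves, with a difference of -3.63 ± 0.81 that was not called without TMG replicate 1 or 2 or TMY replicate 1. For TraesCS5D02G061400 and TraesCS3D02G500800, which carry a protein kinase domain, the differences of 1.73 ± 0.49 and -2.18 ± 0.60 were called (edgeR adjusted p = 0.0438 and 0.0379), and were lost in 10 and 10 of the 12 fits that left out 1 library, that of TraesCS3D02G500800 also by limma-voom and in the fit over all 18 libraries. The second caspase-type gene, TraesCS4D02G358100, and the kinase-domain gene TraesCS5B02G109300 were not called, with differences of -1.28 ± 1.30 and 0.94 ± 0.52.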

How the data were processed

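RNA of whole roots and leaves of wheat cv. Jimai 22 was sequenced in 3 libraries per group, and reads were assigned to genes of the Chinese Spring assembly. The submitters' notes list HISAT2 2.0.5, Bowtie 0.12.2 and the build mm8, a mouse build, with no roles given, and the counting program is not given in the sources used here. The authors deposited raw counts per gene, which were the values analysed. The same table holds the authors' FPKM values and their DESeq2 fold changes and p-values between groups, which were not used. The 12 libraries held 27218551 to 33150906 counts, and p-values measure the spread between replicate pools.

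All 12 libraries of TMG, TG, TMY and TY entered 1 edgeR 4.0.16 fit (R 4.3.3): filterByExpr by group, TMM scaling, quasi-likelihood tests of TMG minus TG, TMY minus TY and their difference, Benjamini-Hochberg adjusted p of 0.05 or less over all genes tested. A standard error is the log2 change divided by the root of F. CPM use the TMM factors, and control levels those of all 18 libraries. Limma 3.58.1 and DESeq2 1.42.0 were alternatives. The members and the 42 gene lists were chosen with earlier results of these data known. Genes named by rule were called, described, at 10 CPM or more in the higher group of each tissue, with 10 or more counts in each group. The 6 largest differences were taken in each opposite class, only among genes whose groups with and without 3-MA did not overlap in either tissue. A further 3 were taken in each single-tissue class and 2 in each direction among genes changed the same way in both tissues. In these classes at most 2 genes per identical description were taken. The leading genes of each list were named too, as were the 6 genes of the study's qRT-PCR, with or without a call. Outside this rule, TraesCS6B02G258400, TraesCS2D02G204700, TraesCS2B02G224300, TraesCS1D02G103500, TraesCS4D02G358800, TraesCS5A02G139900, TraesCS3A02G363700 and TraesCS3D02G231900 were given as examples of their lists. They are not among the 70 named genes followed under the alternatives. The comparison of root with leaf was added after seeing the data.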

Additional observations from a re-analysis of the deposited data

Results flagged for a closer look

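Each result here was singled out because the change with 3-MA differed between roots and leaves by the test of that difference (edgeR's quasi-likelihood test, adjusted p of 0.05 or less), or because the count sums such genes. They were 8404 genes in all, of which 687 changed in opposite directions.

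The root change lay above the leaf change in the following named genes, given as root change minus leaf change on the log2 scale. The difference was 7.63 for TraesCS5A02G146500, 5.30 for TraesCS7D02G491200, 4.85 for TraesCS5D02G069200, 4.43 for TraesCS5D02G232900, 4.26 for TraesCS1D02G300900 and 3.69 for TraesCS7A02G338500. It came to 3.68 for a gene on 5B with a domain found in NAC-type proteins and no reference ID, 3.47 for TraesCS2B02G517400, 3.21 for TraesCS6D02G346400, 3.17 for TraesCS2A02G489500, 3.14 for TraesCS2D02G489700 and 3.10 for TraesCS7D02G345700. Further values were 3.04 for TraesCS4A02G485400, 3.02 for TraesCS2B02G555400, 2.63 for TraesCS1B02G122800, 2.61 for TraesCS1D02G296500, 2.40 for TraesCS1B02G223300 and 2.29 for TraesCS5D02G470400. Next in size were 2.24 for TraesCS1D02G011700, 2.17 for TraesCS1A02G080600, 2.11 for TraesCS7D02G419400, 2.09 for the WRKY-domain gene on 4B with no reference ID, 1.84 for TraesCS1D02G350200 and 1.81 for a gene on 5B with a reverse transcriptase zinc-binding domain. The differences then were 1.79 for TraesCS3D02G321500, 1.73 for TraesCS5B02G072300, 1.73 for TraesCS5D02G061400, 1.40 for TraesCS2D02G118400, 1.33 for TraesCS6A02G271300 and 1.2004 for TraesCS7A02G478100. Smaller values were 1.04 for TraesCS1D02G125600 and 0.82 for TraesCS2A02G238400. Leaving out 1 library at a time lost the call of TraesCS7D02G419400 in 8 of 12 fits and of TraesCS5B02G072300 in 7. The calls of TraesCS2D02G118400, TraesCS3D02G321500 and the gene with the zinc-binding domain were lost in 6 each.

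The root change lay below the leaf change in the other named genes. The difference was -9.17 for TraesCS4D02G238600, -7.63 for TraesCS3B02G328700, -7.53 for TraesCS7D02G201400, -7.18 for an amidase gene on 5B with no reference ID, -7.001 for TraesCS5A02G017900 and -6.55 for TraesCS2D02G431500. It came to -6.23 for TraesCS3A02G297200, -5.86 for TraesCS6D02G212200, -5.51 for TraesCS5A02G393900, -5.11 for TraesCS2A02G460600, -5.11 for TraesCS5A02G305100 and -4.66 for TraesCS7B02G243000. Further values were -4.32 for TraesCS1D02G191100, -4.27 for TraesCS1B02G249000, -4.14 for TraesCS5D02G011800, -4.03 for TraesCS7D02G129700, -3.72 for TraesCS3B02G390100 and -3.63 for TraesCS4B02G381800. Next in size were -3.62 for TraesCS5D02G144800, -3.51 for TraesCS7D02G244800, -3.40 for TraesCS6A02G041700, -3.26 for TraesCS7B02G063400, -3.14 for TraesCS7B02G336700 and -2.94 for TraesCS2D02G101000. The differences then were -2.82 for TraesCS5A02G072700, -2.81 for a helix-loop-helix gene on 3B with no reference ID, -2.77 for TraesCS1B02G095800, -2.67 for TraesCS5A02G461300, -2.52 for TraesCS5D02G536200 and -2.28 for TraesCS4B02G291800. Smaller values were -2.18 for TraesCS3A02G233800, -2.18 for TraesCS3D02G500800, -1.75 for TraesCS3D02G369200, -1.73 for TraesCS7D02G409700, -1.31 for TraesCS2A02G365000 and -0.92 for TraesCS5B02G266200. The difference was -0.82 for a DnaJ-domain gene on 6B with no reference ID and -0.81 for a ribosomal protein gene on 2D with no reference ID. Leaving out 1 library at a time lost the call of TraesCS5D02G536200 in 11 of 12 fits and of TraesCS5D02G011800 in 10. The calls of TraesCS2A02G365000 and TraesCS7D02G409700 were lost in 9 each, the DnaJ-domain gene in 6 and TraesCS5A02G017900 in 4. Limma-voom did not call TraesCS5D02G011800, TraesCS5A02G017900, TraesCS7D02G409700 or the helix-loop-helix gene. The fit over all 18 libraries did not call TraesCS5D02G011800, TraesCS5D02G536200 or the ribosomal protein gene.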

How the results depend on the processing

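Of the 70 named genes called in the tissue test, 43 kept direction and call under every alternative that could be fitted and 27 lost the call under 1 or more, 7 of them only when 1 library was left out. DESeq2 called 13026 genes, 5407 of them with the root change on top, and 426 and 762 in opposite directions. With only the genes expressed in both tissues the root calls were 6455, and the calls of root against leaf 30129 with NaCl alone and 26964 with 3-MA and NaCl. A log2 difference of at least 1 left 10655 leaf calls, and a fit of each tissue on its own gave 14879 root calls and 11923 leaf calls, more in roots than in leaves, against 9749 and 17631 in the joint fit. The replicate numbers did not pair the libraries: of 18 pairs with the same number 4 had a correlation of deviations above 0.1, over a range of -0.20 to 0.16. A replicate block gave 6736 calls, and a replicate block within each tissue 5515, with 1759 on top, 3756 below and 4317 among genes expressed in both tissues. Of the genes named in the report, the block within each tissue did not call TraesCS1D02G296500, TraesCS1D02G300900, TraesCS4A02G485400, TraesCS4B02G381800, TraesCS7D02G244800, TraesCS5D02G061400 and TraesCS3D02G500800. Nor did it call TraesCS2A02G365000, TraesCS7D02G409700, the DnaJ-domain gene on 6B and the ribosomal protein gene on 2D. TraesCS3D02G500800 and TraesCS2A02G365000 were not called with 1 common block either. Leaving out each library in turn gave 4624 to 12962 calls, 1455 to 4079 on top, 3169 to 8883 below and 3676 to 10581 among genes expressed in both tissues. It gave 96 to 329 genes up in roots and down in leaves and 214 to 918 of the reverse, 4793 to 12537 root calls, 11698 to 21002 leaf calls, and 49490 to 54961 and 44309 to 49526 calls of root against leaf with NaCl alone and with 3-MA and NaCl. Without TMY replicate 2, 7960 of the 8404 genes were still called. The split of calls was 3943 on top and 4552 below in the fit of all 18 libraries. Scaling by library size alone moved the median leaf change to 0.11. The difference of TraesCS4D02G358100, not called, was -1.28 with all 12 libraries and ranged between -2.44 without TY replicate 2 and 0.31 without TMY replicate 2. The cause of these shifts was not tested.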
